A study of Drosophila melanogaster with 6 samples.

Results

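The genes described here are 10 that mark the identity and function of glia, the support cells of the nervous system, in late embryos of Drosophila melanogaster. They were chosen by name, with earlier results of these data known. The 10 are repo, the blood-brain barrier genes moody, loco, Gli and Tret1-1, the astrocyte-like genes Eaat1, Gs2, Gat and alrm, and wrapper. All 10 were found among the 17559 gene identifiers of each count file, and all 10 passed the low-count filter that left 10312 genes for testing. RNA was sequenced from whole embryos at 20 to 22 hours after egg laying. Each library was a pool of 100 embryos from eggs collected at 25 °C. The 3 mutant libraries carried lola-O, named in the labels as a knockout of the O isoform of lola, over the deficiency chromosome Df(2R)ED2076. In the 3 control libraries the same deficiency stood over a chromosome with wild-type lola, so the deficiency was common to both groups. Alternative splicing of lola yields many BTB zinc-finger transcription factors with roles in axon growth.

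Fly glia arise under the transcription factors Gcm and, after it, Repo, the homeodomain protein found in nearly all glia outside the midline. Surface glia wrap the nerve cord and seal it from the hemolymph with septate junctions, which form the blood-brain barrier, and they carry sugar inward. Astrocyte-like glia send processes into the synaptic neuropil, where they take up glutamate and GABA and turn glutamate into glutamine. Cortex, wrapping and midline glia enclose cell bodies and axons. Since RNA came from whole embryos, fewer glia and less RNA per glial cell cannot be told apart, and several of these genes are also used outside the nervous system.

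Total counts were 16217213 to 20518120 in the mutant libraries and 17480430 to 22759638 in the control libraries. The identifier FBgn0005630, used for lola in earlier FlyBase releases as background knowledge, had 350 ± 13.2 CPM in mutants and 413 ± 11.0 CPM in controls (SD, n = 3 each); CPM are counts scaled to 1000000 per library with TMM factors, and changes are given as log2 fold changes, mutant over control, also where a gene is said to have risen or fallen by a value. This count sums all isoforms, so it is no check of the genotype. Over all tested genes 39.7% passed edgeR at an adjusted p below 0.05, 20.2% higher and 19.5% lower in the mutants, with a median log2 fold change of 0.0010. Longer transcripts tended to be lower in the mutants: in the shortest 10% of genes by transcript length the median log2 fold change was 0.097, and in the longest 10% it was -0.14. A correction for transcript length was therefore run beside the first fit, and under it 31.6% of genes passed, 16.7% higher and 14.9% lower.

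Levels are compared between genes per length, as CPM per kb of the longest annotated transcript. The astrocyte-like genes were at the top. Gs2, the glutamine synthetase that converts glutamate to glutamine, had 164 ± 1.48 CPM per kb in mutants and 168 ± 3.76 CPM per kb in controls (SD, n = 3 each). Gat, the GABA transporter, had 117 ± 2.57 CPM per kb in mutants and 112 ± 6.28 CPM per kb in controls. Eaat1, the glial glutamate transporter, had 41.3 ± 0.612 and alrm, a leucine-rich repeat protein of astrocyte-like glia, 38.7 ± 0.755 CPM per kb in mutants, against 38.0 ± 0.757 and 35.3 ± 1.45 CPM per kb in controls. Over the 6 libraries the ranges of Eaat1 and alrm overlapped, which makes them the only neighbours in the order that did not stand apart.

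The barrier genes came next. Tret1-1, a trehalose transporter of the outermost surface glia, had 25.5 ± 0.422 CPM per kb in mutants and 29.0 ± 0.892 in controls. Gli, the transmembrane protein Gliotactin of tricellular junctions in glia and epithelia, had 14.3 ± 0.659 CPM per kb in mutants and 15.1 ± 0.338 in controls. The receptor gene moody had 8.05 ± 0.340 CPM per kb in mutants and 9.69 ± 0.178 in controls, and loco, whose product ends G-protein signals, had 6.01 ± 0.0681 CPM per kb in mutants and 6.63 ± 0.397 in controls. The lowest levels were those of repo, at 4.61 ± 0.744 CPM per kb in mutants and 4.92 ± 0.376 in controls, and wrapper, at 2.87 ± 0.288 CPM per kb in mutants and 2.68 ± 0.231 in controls. The order of the 10 genes was the same in both groups.

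**Figure D1:**
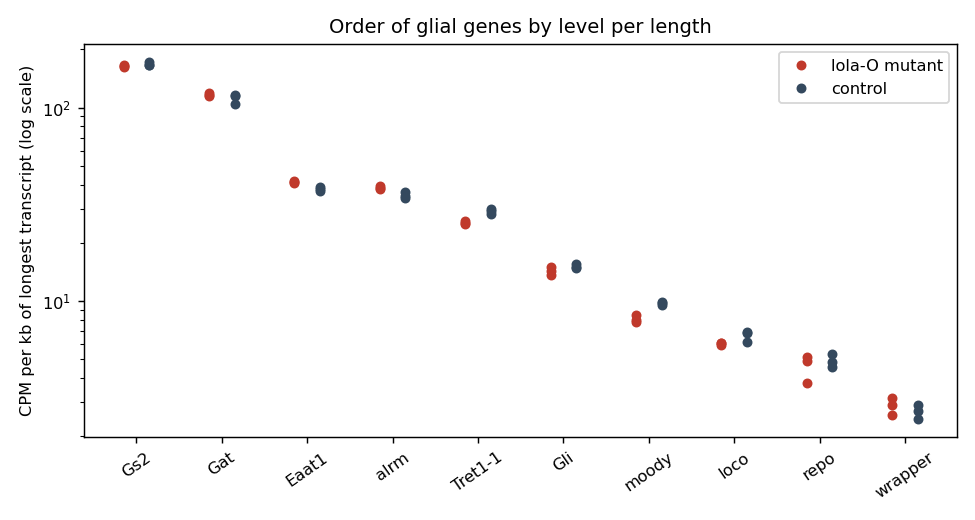
Level of each gene per length (CPM per kb of the longest annotated transcript, log scale) in the 3 lola-O mutant and the 3 control libraries, 1 point per library. From Gs2, at 164 CPM per kb in mutants, to wrapper, at 2.87, neighbours stand apart except Eaat1 and alrm.

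Of the 10 genes, 5 passed edgeR: alrm and Eaat1 rose, and moody, Tret1-1 and loco fell. The share, 5 of 10, stood close to the 39.7% of all tested genes, so the count alone is no result about the glial genes. In this fit the direction followed the class, since both genes that rose were astrocyte-like genes and the 3 that fell were barrier genes. The median log2 fold change was -0.060 over the 10 genes, 0.092 over the 4 astrocyte-like genes and -0.16 over the 4 barrier genes, against 0.0010 over all tested genes. All changes were small, and none reached 1.5-fold. After the length correction 5 genes passed again, against 31.6% of all genes, but only moody, Tret1-1 and Eaat1 passed in both fits. Gat then passed as higher, and the astrocyte-like gene Gs2 passed as lower. The corrected median was 0.081 over the astrocyte-like genes and -0.10 over the barrier genes. Barrier genes have the longer transcripts, 3.1 to 5.3 kb against 1.7 to 3.0 kb for the astrocyte-like genes. The genes moody, Tret1-1 and Eaat1 also passed under each of the 16 other settings tried. DESeq2 called these 3 of the 10 and no other, against 3005 of the 11254 genes it tested.

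**Figure D2:**
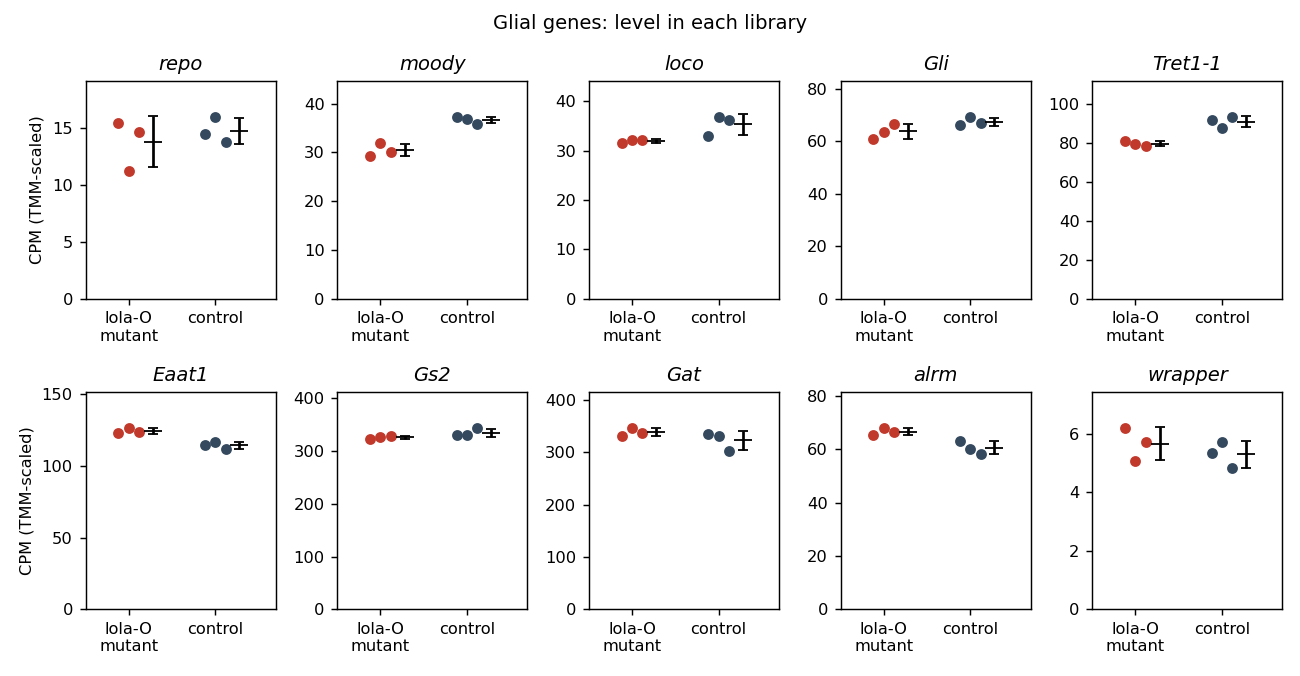
Level of each of the 10 genes in CPM (TMM-scaled, axes from 0), 1 point per library, with the group mean and SD (n = 3) beside the points. The mutants lie below the controls for moody, loco, Tret1-1 and Gs2 and above them for Eaat1 and alrm; the other 4 genes overlap.

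Moody is a G-protein-coupled receptor that organises the cytoskeleton and junctions of the barrier glia. The gene moody (X, 2044292 to 2050120, minus strand, 6 annotated transcripts) had 29.4, 31.9 and 30.1 CPM in mutants 1 to 3, against 37.2, 36.9 and 35.9 CPM in controls 1 to 3. Every mutant lay below every control. It fell by 0.27 (SE 0.055; adjusted p = 4.25e-05, edgeR), to 0.828 times the control level with a 95% interval of 0.767 to 0.894. The length correction left it at -0.22 (SE 0.055, edgeR adjusted p = 6.95e-04). Of all tested genes, 10.5% had a lower log2 fold change than moody.

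Tret1-1 (2R, 11665768 to 11674782, plus strand) had 81.1, 79.4 and 78.5 CPM in mutants 1 to 3 and 91.7, 87.8 and 93.3 CPM in controls 1 to 3. The groups did not overlap. It fell by 0.19 (SE 0.039; adjusted p = 4.67e-05, edgeR), and by 0.17 after the length correction (edgeR adjusted p = 2.33e-04). Tret1-1 lies 1122477 bases from lola on the chromosome that carries the mutation, and the part of other differences on that chromosome in its level was not tested. The same holds for genes described further on that lie nearer to lola. They are Galphao at 16193 bases, Pka-R2 at 455852 bases, brp at 940329 bases and ced-6 at 1036957 bases. It holds also for the other genes named here on the arms 2L and 2R of that chromosome, among them Eaat1, Gli, Treh, cora, LRP1, Egfr, grh and sli. The related transporter gene Tret1-2 starts 1152 bases downstream of Tret1-1. Tret1-2 was nearly silent, with 0, 0 and 1 counts in mutants 1 to 3, against 7, 6 and 6 counts in controls 1 to 3, and fell below the filter. Reads shared between this pair, if any, cannot be assigned from these files.

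Loco is a regulator of G-protein signalling that acts downstream of Moody. The gene loco (3R, 22619968 to 22639387, minus strand) had 31.6, 32.2 and 32.3 CPM in mutants 1 to 3, against 32.9, 36.8 and 36.3 CPM in controls 1 to 3. Control 1 lay close to the mutants. It fell by 0.14 (SE 0.056; adjusted p = 0.0383, edgeR), and that call did not hold with the length correction (-0.044, edgeR adjusted p = 0.601) or with DESeq2 (adjusted p = 0.163). Leaving out 1 library at a time gave an edgeR adjusted p of 0.0111 to 0.209, below 0.05 only without control 1. An antisense gene, asRNA:CR43474, overlaps the exons of loco and held at most 1 count in any library.

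Gli (2L, 15756002 to 15762758, minus strand) had 60.8, 63.7 and 66.7 CPM in mutants 1 to 3 and 66.2, 69.2 and 67.0 CPM in controls 1 to 3. Mutant 3 reached into the range of the controls. Its log2 fold change of -0.082 (SE 0.043) missed the edgeR threshold (adjusted p = 0.125), and the 95% interval of -0.17 to 0.0036 includes the size of the change of loco. After the length correction it was -0.0094 (95% interval -0.094 to 0.075).

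In the first fit the astrocyte-like genes moved the other way or did not pass. Eaat1 (2L, 9333567 to 9341925, plus strand) had 123, 127 and 124 CPM in mutants 1 to 3 and 115, 117 and 112 CPM in controls 1 to 3. Every mutant lay above every control. It rose by 0.12 (SE 0.035; adjusted p = 0.00410, edgeR), or 1.09-fold, and by 0.13 after the length correction (edgeR adjusted p = 7.96e-04). The other glutamate transporter gene, Eaat2, had 37.1 ± 0.682 CPM in mutants and 38.5 ± 1.52 CPM in controls (SD, n = 3 each). Its log2 fold change of -0.049 had a 95% interval of -0.15 to 0.056 and did not pass (edgeR adjusted p = 0.494), nor did the value of -0.016 after the length correction (edgeR adjusted p = 0.859).

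The gene alrm (3R, 25381065 to 25382781, minus strand, 1 transcript) had 65.4, 67.9 and 66.3 CPM in mutants 1 to 3, against 63.2, 60.0 and 58.3 CPM in controls 1 to 3. The groups did not overlap. It rose by 0.13 (SE 0.043; adjusted p = 0.00978, edgeR). With the length correction the change was 0.085 and did not pass (edgeR adjusted p = 0.125), and with DESeq2 the adjusted p was 0.0642.

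Gat lies on chromosome 4 (629691 to 635350, plus strand). It had 331, 346 and 337 CPM in mutants 1 to 3 and 335, 331 and 302 CPM in controls 1 to 3, so the groups overlapped and control 3 was the lowest. Its log2 fold change of 0.066 (SE 0.031) missed the edgeR threshold (adjusted p = 0.0847). It passed after the length correction, at 0.076 (edgeR adjusted p = 0.0437). Without control 3 the log2 fold change was 0.021 (edgeR adjusted p = 0.614), and without control 1 or control 2 it was 0.094 or 0.090 and passed (edgeR adjusted p = 0.0348 and 0.0418).

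Gs2 (X, 11422832 to 11430197, plus strand, 6 transcripts) was the astrocyte-like gene with no rise. It had 323, 326 and 329 CPM in mutants 1 to 3 and 331, 330 and 343 CPM in controls 1 to 3. The mutants lay just below the controls. Its log2 fold change of -0.037 (SE 0.029) missed the edgeR threshold (adjusted p = 0.316). The median change of genes in the same length decile was 0.042, and after the length correction Gs2 was at -0.071 and passed as lower (edgeR adjusted p = 0.0413). Its mitochondrial relative Gs1 had 295 ± 9.14 CPM in mutants and 304 ± 7.45 CPM in controls (SD, n = 3 each), and its log2 fold change of -0.043 did not pass (edgeR adjusted p = 0.266), nor did the value of -0.058 after the length correction (edgeR adjusted p = 0.118).

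The pan-glial gene repo (3R, 18236192 to 18239602, plus strand) had 15.5, 11.3 and 14.7 CPM in mutants 1 to 3 and 14.5, 16.0 and 13.7 CPM in controls 1 to 3. The groups overlapped, and mutant 2, with 180 counts, stood below the rest. Its log2 fold change of -0.085 (SE 0.088) missed the edgeR threshold (adjusted p = 0.473), with a 95% interval of -0.26 to 0.091, and turned to 0.028 without mutant 2 (edgeR adjusted p = 0.840). With the length correction it was -0.069 (edgeR adjusted p = 0.598). The interval includes a fall as large as that of Tret1-1, so a fall of that size in repo is not excluded. The coefficient of variation for repo was 16.1% in mutants and 7.65% in controls. The gene CG7156 overlaps 183 bases of the exons of repo on the opposite strand.

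Wrapper is an immunoglobulin-domain protein through which midline glia hold on to commissural axons. The gene wrapper (2R, 22379637 to 22382675, plus strand) had 6.21, 5.07 and 5.73 CPM in mutants 1 to 3 and 5.37, 5.73 and 4.82 CPM in controls 1 to 3, from 81 to 130 counts a library. The groups overlapped. Its log2 fold change of 0.095 (SE 0.13) missed the edgeR threshold (adjusted p = 0.607), and the 95% interval ran from -0.17 to 0.36. Corrected for length it was 0.062 (edgeR adjusted p = 0.775).

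**Figure D3:**
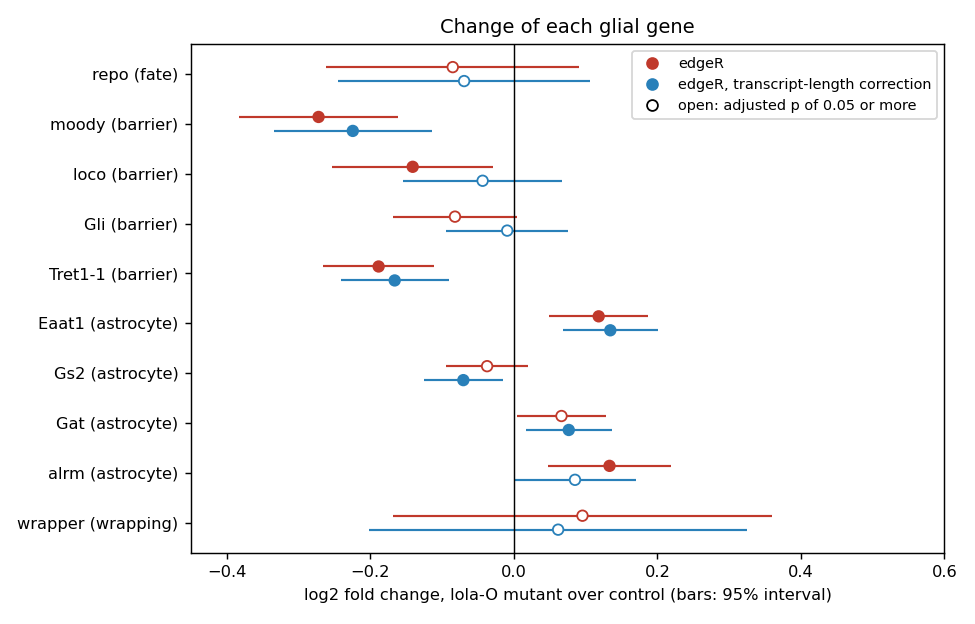
Log2 fold change of each gene, lola-O mutant over control, with its 95% interval, by edgeR and by edgeR with the transcript-length correction; filled points passed at an adjusted p below 0.05. moody and Tret1-1 lie left of 0 and Eaat1 lies right of 0 in both fits, while loco and alrm pass only in the first.

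Barrier and astrocyte-like genes were then set against each other within each library, a difference that does not depend on how libraries are scaled. The mean log2 CPM of moody, loco, Gli and Tret1-1 minus that of Eaat1, Gs2, Gat and alrm was -1.89, -1.88 and -1.87 in mutants 1 to 3, against -1.69, -1.63 and -1.59 in controls 1 to 3. The mutants lay below all controls. The gap averaged -1.88 ± 0.010 in mutants and -1.64 ± 0.048 in controls (SD, n = 3 each), a difference of -0.24 on the log2 scale. The barrier mean contributed -0.17 and the astrocyte-like mean 0.072. With the length correction the difference was -0.17. No p is given for these means over chosen genes.

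Ratios of single genes were compared in the same way. Of the 16 ratios of a barrier gene to an astrocyte-like gene, 14 were lower in every mutant than in every control, and the 2 others, Gli to Gs2 and Gli to Gat, overlapped. Moody to Eaat1 was 0.239, 0.252 and 0.244 in mutants 1 to 3, against 0.324, 0.317 and 0.321 in controls 1 to 3. Tret1-1 to alrm was 1.24, 1.17 and 1.19 in mutants 1 to 3, against 1.45, 1.46 and 1.60 in controls 1 to 3. The ratios share genes and are not independent of each other. They were not corrected for transcript length, and the barrier genes have the longer transcripts. The share of ratios that stand apart was not computed for other gene pairs, so the count alone is no result about the classes. In CPM, the groups did not overlap for 6 of the 10 glial genes, 2 with the mutants above and 4 with the mutants below, against 47.8% of all tested genes, 24.1% above and 23.7% below.

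**Figure D4:**
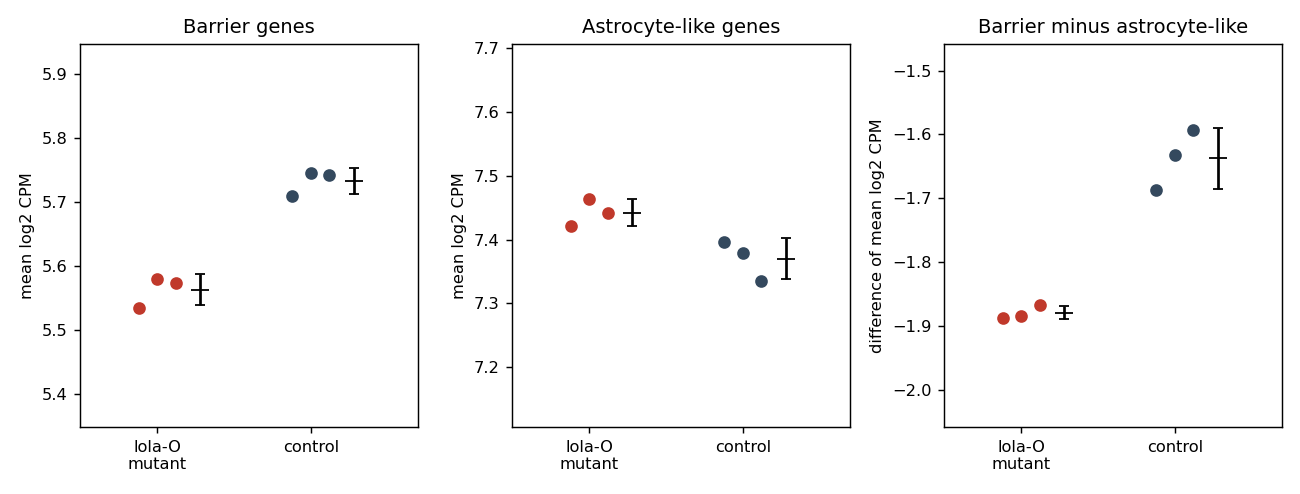
Mean log2 CPM of the 4 barrier genes and of the 4 astrocyte-like genes, and their difference, 1 point per library with group mean and SD (n = 3). Each axis spans the same number of log2 units; the difference is -1.89 to -1.87 in mutants and -1.69 to -1.59 in controls.

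The genes that work with Moody were read next. Of 6 genes of G-protein signalling, 2 fell and 4 did not pass, with a median log2 fold change of -0.034. Over all tested genes 19.5% fell. Galphao, an alpha subunit, fell by 0.087 (edgeR adjusted p = 0.0132) and the protein kinase A catalytic gene Pka-C1, whose product acts against Moody signalling, fell by 0.095 (edgeR adjusted p = 0.00559). Both turned after the length correction, to 0.013 and 0.0012, and the calls were also lost without mutant 1 for Galphao (edgeR adjusted p = 0.205) and without mutant 3 for Pka-C1 (edgeR adjusted p = 0.0815). The alpha subunit gene Galphai, at 0.080, Gbeta13F, at 0.050, Ggamma1, at -0.014, and Pka-R2, at -0.053, did not pass edgeR (adjusted p of 0.146 or more), but Gbeta13F was higher after the length correction, at 0.15 (edgeR adjusted p = 3.34e-06).

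The septate junction, which seals both barrier glia and outer epithelia, had members that fell and none that rose. Of 21 components, 12 fell, none rose and 9 did not pass, with a median log2 fold change of -0.10 against 0.0010 over all genes; 19.5% of all genes fell. The band 4.1 gene cora had 421 ± 7.34 CPM in mutants and 493 ± 7.38 CPM in controls (SD, n = 3 each) and fell by 0.23 (edgeR adjusted p = 1.58e-10). The polarity gene scrib fell by 0.27, the tricellular junction gene bark by 0.28 and the contactin gene Cont by 0.21 (edgeR adjusted p of 1.96e-07 or less). After the length correction 9 were lower and 1, l(2)gl, was higher, against 14.9% and 16.7% of all genes, with a median of -0.095. The genes cora, scrib, bark and Cont still passed, at -0.12, -0.095, -0.10 and -0.13. The calls of Nrx-IV, Nrg, Atpalpha, Mcr and dlg1 were lost, at -0.0094 to 0.021, and pck and cold passed only in the corrected fit. Of 4 tested epidermis and trachea markers, 3 were lower in the first fit and 1, grh, after the length correction, against 19.5% and 14.9% of all genes. The summed level of these markers was 283 to 300 CPM in mutants and 320 to 341 CPM in controls. Their part in the fall of the junction genes was not tested.

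Among genes of barrier transport and sugar supply, several fell. Of 10 genes, 9 were tested, of which 5 fell, none rose and 4 did not pass, with a median log2 fold change of -0.15, against 19.5% of all genes that fell. Treh, the trehalase that splits trehalose into glucose, had 126 ± 1.32 CPM in mutants and 181 ± 2.71 CPM in controls (SD, n = 3 each). It fell by 0.52 (SE 0.033, edgeR adjusted p = 2.18e-22), and by 0.49 after the length correction. The trehalose synthesis gene Tps1, a further gene that passed, fell by 0.15, and by 0.14 after the length correction (edgeR adjusted p = 2.06e-04 and 4.08e-04). The efflux transporter gene Mdr65 fell by 0.22 (edgeR adjusted p = 1.89e-07), and by 0.16 after the length correction. The lipoprotein receptor genes LRP1 and mgl fell by 0.30 and 0.18 (edgeR adjusted p of 4.76e-06 or less), and no longer passed after the length correction, at -0.064 and 0.057. After the correction 4 of the 9 were lower and 1 higher, against 14.9% and 16.7% of all genes. Treh and Tps1 are also used outside glia, and exons of both overlap a gene on the opposite strand.

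Genes that handle glutamate and GABA outside the 10 moved in both directions. Of 9, 2 rose, 1 fell and 6 did not pass, with a median of -0.031, against 39.7% of all genes that passed. The 2 that rose encode enzymes that break down transmitter: Gabat, the GABA transaminase, had 182 ± 3.90 CPM in mutants and 160 ± 1.15 CPM in controls (SD, n = 3 each) and rose by 0.18 (edgeR adjusted p = 2.27e-06), and Gdh, the glutamate dehydrogenase, rose by 0.12 (edgeR adjusted p = 4.51e-05). Both still passed after the length correction, at 0.16 and 0.0997. The metabotropic receptor gene mGluR fell by 0.15 (edgeR adjusted p = 0.00583) but not after the correction (-0.033, edgeR adjusted p = 0.619). The neuronal genes Gad1, at -0.031, VGAT, at 0.019, and VGlut, at -0.065, did not pass edgeR (adjusted p of 0.102 or more), nor did the glial exchanger gene gb, at 0.12.

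Fate genes and other glial subtypes gave mixed values. Of 6 fate genes 3 fell and 3 did not pass, with a median of -0.15, against 19.5% of all genes that fell. The gene pros fell by 0.32, ttk by 0.13 and pnt by 0.14 (edgeR adjusted p of 0.0197 or less). After the length correction edgeR called none of the 6, with 0 at an unadjusted p below 0.05, and their median was -0.069; limma-voom and DESeq2, without the correction, called 3 and 2. The call of pnt was lost with DESeq2 (adjusted p = 0.101) and in edgeR without mutant 1, mutant 2 or control 3 (adjusted p of 0.118, 0.0538 and 0.167). The glial switch gene gcm was low, at 0.547 CPM in mutants and 0.607 CPM in controls. Of 13 genes of cortex, ensheathing, wrapping and midline glia, 4 fell, none rose and 9 did not pass, with a median of -0.031. The share over all genes that fell is again 19.5%. The EGF ligand gene spi fell by 0.29, its receptor gene Egfr by 0.28, the midline repellent gene sli by 0.22 and the feedback inhibitor gene aos by 0.19 (edgeR adjusted p of 0.0301 or less). Corrected for length, spi, at -0.34, Egfr, at -0.17, and aos, at -0.18, still passed, and sli, at -0.053, did not. The call of aos was lost with DESeq2 (adjusted p = 0.152) and in edgeR without mutant 1, mutant 3 or control 2 (adjusted p of 0.0685, 0.120 and 0.130). The cortex glia gene Cyp4g15 had 31.4 CPM in mutants and 31.2 CPM in controls, and the gap junction genes ogre and Inx2 had log2 fold changes of -0.021 and -0.019 that did not pass, although Inx2 was higher after the correction, at 0.076 (edgeR adjusted p = 0.0436).

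**Figure D5:**
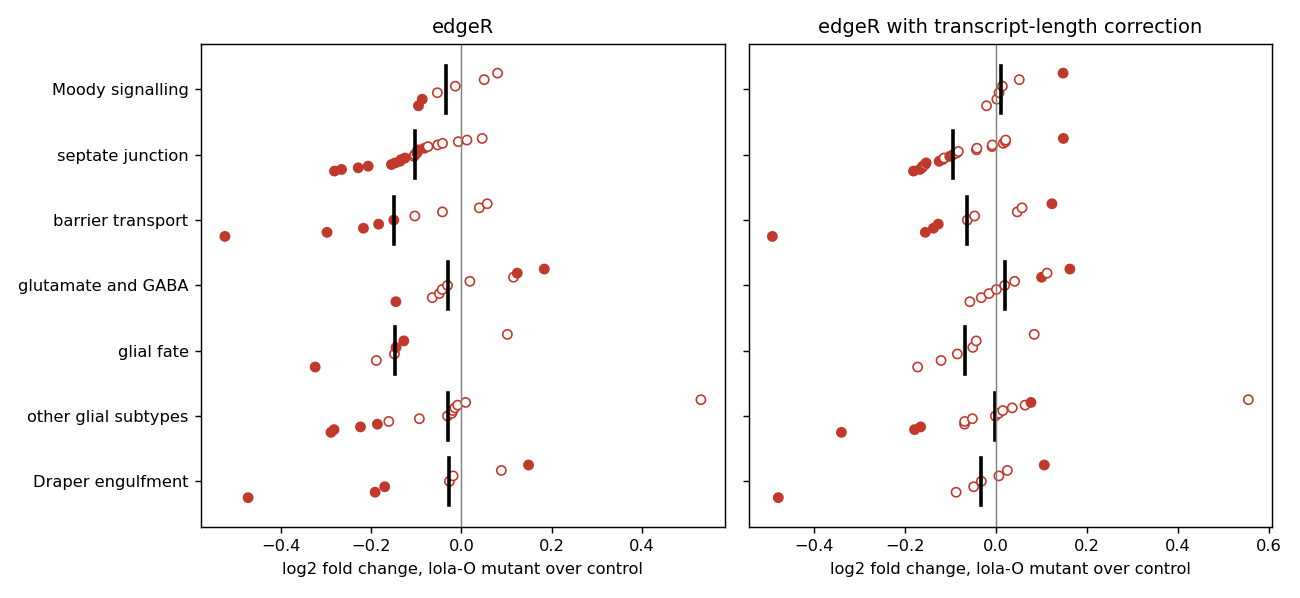
Log2 fold change, lola-O mutant over control, of each tested gene of 7 lists around the 10 glial genes, by edgeR (left) and with the transcript-length correction (right); filled points passed at an adjusted p below 0.05 and black bars are list medians. The septate junction median is -0.10 and -0.095, while that of glial fate is -0.15 and -0.069.

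Markers of neurons, the cells that glia serve, were read beside the glial genes. Of 10 tested neuron markers 6 fell, none rose and 4 did not pass, with a median log2 fold change of -0.10. Over all genes 19.5% fell, and of the longest 10% of genes by transcript length 60.8% fell. The longest annotated transcripts of these markers have a median of 7.46 kb. Their summed level was 2362 to 2515 CPM in mutants and 2525 to 2610 CPM in controls. The calcium channel gene cac fell by 0.19, the syntaxin gene Syx1A by 0.18, elav, for an RNA-binding protein of all neurons, by 0.17, and the active-zone gene brp by 0.16 (edgeR adjusted p of 2.83e-05 or less). Syx1A was still lower after the length correction, at -0.12 (edgeR adjusted p = 0.00309), cac was at -0.0059 and did not pass (edgeR adjusted p = 0.917), and elav and brp turned, to 0.014 and 0.040. In that fit 3 neuron markers were higher and 1, Syx1A, lower, against 16.7% and 14.9% of all genes. Of the 4 neuroblast markers none passed edgeR, limma-voom or DESeq2, with 0 at an unadjusted edgeR p below 0.05, and their summed level was 9.58 to 11.0 CPM in mutants and 10.6 to 11.3 CPM in controls. No marker of either list was at 0 in any library. Whether a different share of nervous tissue plays a part in the changes of the glial genes was not tested.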

How the data were processed

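The authors deposited raw read counts, whole numbers per FlyBase gene, in 1 file per library. The tools were bedtools 2.25.0, SAMtools 1.3.1, Subread 1.5.1 and STAR 2.5.2b on build BDGP6, per the submitters' processing notes. Not given in the sources used here are their roles, the strand setting, the handling of multiply mapped reads and the annotation. Groups and replicate numbers came from the titles; the descriptions call all 3 controls replicate 1, and the protocol text names mutant embryos for every sample. The labels do not say whether replicates came from separate crosses, so p-values reflect only how these samples scatter, in part perhaps technically. Replicates differed by more than sampling noise (chi-square per degree of freedom 1.94 to 6.14 over genes whose pair summed to 100 counts or more).

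Symbols and positions came from the Ensembl release 115 annotation of BDGP6 and its name table, which matched 17253 of 17559 identifiers. The main test was edgeR 4.0.16 in R 4.3.3 (TMM, filterByExpr, robust glmQLFit and glmQLFTest, Benjamini-Hochberg adjustment over 10312 genes, 2-sided). SE is the fold change over the square root of F. The length correction removed, per library, a lowess trend (span 0.3) of log2 CPM on transcript length, over 10110 genes with a length. Scripts were tested on simulated counts. A library's floor of 3 counts is 0.132 to 0.185 CPM; intervals from counts cover counting error only. The 10 genes and the lists were chosen with earlier results of these data known. Beside the 10, the text names the lola identifier and the relatives Tret1-2, Gs1 and Eaat2. It names every gene of the G-protein and transmitter lists where it has a value to give. It also names up to 4 genes per list with the smallest adjusted p that passed edgeR at a mean of at least 1 CPM. Tps1, l(2)gl, gcm, Cyp4g15, ogre, Inx2, He and eater were named after their values were seen. So were up, Nrx-IV, Nrg, Atpalpha, Mcr, dlg1, pck, cold, asRNA:CR43474 and CG7156. Other settings were RLE and upper-quartile scaling, other filters, DESeq2 1.42.0, limma-voom (limma 3.58.1), a replicate block and leaving out each library.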

Additional observations from a re-analysis of the deposited data

How the results depend on the processing

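All 10 glial genes were tested under 16 other settings. With 1 library left out, 3481 to 3872 genes passed against 4093 with all 6, and 4 to 6 of the 10 glial genes against 5. DESeq2 called 3 of the 10, against 3005 of the 11254 genes it tested. The difference between mutants and controls in the gap of barrier to astrocyte-like genes was -0.267 to -0.219 with 1 library left out. It was -0.17 with the length correction, and -0.24, -0.24 and -0.21 with a prior count of 0.5, without Tret1-1 and with medians. The sign of repo turned without mutant 2 (0.028). With the length correction, without and with the replicate block, the signs turned for mgl (0.057 and 0.057), Pka-C1 (0.0012 and 0.0011), Galphao (0.013 and 0.012), sls (0.065 and 0.065), brp (0.040 and 0.040) and elav (0.014 and 0.013); the correction's own construction lifts long transcripts. Equal replicate numbers did not pair the libraries (correlations of deviations 0.034, -0.026 and 0.060 over 8210 genes); the replicate block alone called 4077 genes and the same number of the 10, 5. Depth limits wrapper and repo most, at 81 to 130 and 180 to 362 counts a library.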

Other observations

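The engulfment pathway of glia, in which the receptor Draper clears neuronal debris, was looked at beside the 10 glial genes. Of 8 genes, 7 were tested; 3 fell, 1 rose and 3 did not pass, with a median log2 fold change of -0.027, against 39.7% of all genes that passed. The adaptor gene ced-6 had 49.9 ± 0.567 CPM in mutants and 69.2 ± 1.81 CPM in controls (SD, n = 3 each), and fell by 0.47 (SE 0.044; adjusted p = 1.85e-14, edgeR), or by 0.48 after the length correction. The receptor gene drpr fell by 0.17 (edgeR adjusted p = 5.89e-04) and the exchange factor gene mbc by 0.19, and neither passed after the correction (edgeR adjusted p of 0.0951 or more). Rac1 rose by 0.15, and by 0.11 after the correction (edgeR adjusted p = 6.25e-04 and 0.0153). Hemocytes, the blood cells that also engulf debris through Draper, were read beside this list. Of 7 hemocyte markers 3 fell, 1 rose and 3 did not pass, against 39.7% of all genes that passed. Their summed level was 321 to 325 CPM in mutants and 347 to 357 CPM in controls. NimC1 fell by 0.69 and Hml by 0.27, crq rose by 0.18, and He and eater, at -0.25 and 0.34, did not pass edgeR (adjusted p of 0.0870 or more). Corrected for length, NimC1, at -0.68, and crq, at 0.19, still passed, Hml, at -0.067, did not (edgeR adjusted p = 0.133), and He passed as lower, at -0.35 (edgeR adjusted p = 0.0174). The part of hemocytes in the fall of ced-6 was not tested, nor was that of other differences on the chromosome of lola, where ced-6 lies 1036957 bases from that gene.

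Tret1-2, which the filter kept out of the test, held 1 count in the 3 mutants together and 19 in the 3 controls, and all 3 controls had 6 or 7. The ratio of summed counts per total, mutants over controls, was 0.0578 (95% exact interval 0.00139 to 0.363, counting error only).

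Of the muscle markers, 4 of 6 fell and 1 rose, against 19.5% and 20.2% of all genes. Their summed level was 21900 to 22180 CPM in mutants and 24010 to 24230 CPM in controls. With the correction 3 were lower and 1 higher, against 14.9% and 16.7% of all genes. Mhc, at -0.063, Mef2, at -0.085, and Act57B, at -0.16, were lower (edgeR adjusted p of 0.0323 or less). The gene sls, lower by 0.31 in the first fit, was higher by 0.065 (edgeR adjusted p = 0.0315). The gene up, higher by 0.063 in the first fit, no longer passed (0.013, edgeR adjusted p = 0.713). Of 4 tested epidermis and trachea markers, grh fell by 0.33, crb by 0.17 and trh by 0.16 (edgeR adjusted p of 0.0123 or less). Over all genes 19.5% fell. Of the longest 10% of genes by transcript length, which hold grh and crb, 60.8% fell, and of the next longest 10%, which hold trh, 31.9% fell. In the corrected fit grh still passed, at -0.21, and crb, at -0.024, and trh, at -0.085, did not (edgeR adjusted p = 0.711 and 0.231). The call of trh was also lost with DESeq2 (adjusted p = 0.0823) and in edgeR without mutant 3 or control 1 (adjusted p = 0.137 and 0.0529).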
